A study of Mus musculus with 6 samples.

Results

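The genes of the proteasome were followed in mouse leukemia cells treated with CBD or with 4-hydroxytamoxifen (4-OHT). The rule took every gene whose symbol is Psma, Psmb, Psmc, Psmd, Psme, Psmf or Psmg followed by a digit, without Psmb8 and Psmb9, and found 47 of the 21881 genes listed in each of the 2 deposited tables. Among the 47, Psmc3ip matches only by its letters: it encodes a meiotic recombination factor and not a proteasome subunit, so it was kept apart. The other 46 were sorted by role into 17 core genes (8 of the alpha ring and 9 of the beta ring), 20 cap genes (6 ATPases and 14 non-ATPases), 4 activators, 1 inhibitor and 4 chaperones of core assembly.

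The treated groups were cells given CBD, called an Id1 inhibitor in the design text, at 15 µM for 16 h, and cells given 4-OHT at 0.1 µM for 48 h; the third group was control cells. All 3 groups, the controls included, are leukemia cells driven by AE9a, a truncated AML1-ETO fusion protein, whose Id1 alleles carry loxP sites and which hold CreER, the recombinase that 4-OHT switches on. The strain is given as C57/B6X129SV, the labels name no vehicle for the controls, and 4-OHT on cells without loxP sites was not analysed here. Of the 6 samples 2 belong to each group, but each table gives 1 FPKM value per group (fragments per unit of transcript length and of sequencing depth). The sample descriptions place 1 control sample with the CBD samples and the other with the 4-OHT samples, so each control column may be 1 library. Values of single samples, depth and the spread between samples are unknown, and no SD can be set beside a value.

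The proteasome is the protease that degrades proteins tagged with ubiquitin. Its core is a barrel of alpha and beta rings with the catalytic sites inside, and its cap binds tagged proteins, removes the ubiquitin, and unfolds and feeds the chain into the core with a ring of ATPases. Other activators can replace the cap, and dedicated chaperones put core and cap together. Cells under proteotoxic stress raise the subunit genes together through the transcription factor Nfe2l1, and interferon swaps inducible catalytic subunits into the core.

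"Rose" and "fell" below mean a q under 0.05 in the Cuffdiff test of the authors' deposited table, and every log2 fold is that of the treated over the control column with 0.1 FPKM added to each. The 2 tables were made separately and have different control columns, which are named here by their table. Id1, the gene the study aims at, fell to 0.741 FPKM with 4-OHT against 15.4 in its control. With CBD it was at 11.95 FPKM against 34.2 in its control, which was not called (q = 0.133 in the authors' deposited table). Of the markers fixed for the leukemia cells, Kit (75.0 to 95.6 FPKM over the 4 columns), Myb (65.5 to 112) and Sfpi1 (28.6 to 51.3) were well expressed, whereas Elane was listed at 0 in all 4 columns and Mpo, Prtn3 and Ptprc did not exceed 0.417 FPKM in any. Of this list 2 of 7 tested genes fell with CBD (Myb and Runx1t1), and 1 of 6 rose and 3 fell with 4-OHT, where 7.74% of all tested genes fell with CBD, and 27.2% rose and 16.9% fell with 4-OHT. The CBD column also held neural transcripts: 20 of 22 neural markers rose with CBD, beside 18.4% of all tested genes. The 22 summed to 521 FPKM for CBD and 62.5 for its control, and to 40.0 for 4-OHT and 45.0 for its control. A few markers made up most of the 3 lower sums. The median marker was at 11.3 FPKM with CBD against 0.0589 in its control, and 0.00874 with 4-OHT against 0.0106 in its control. Of the Y-linked genes 3 of 3 tested rose with CBD, with a sum of 1.97 FPKM for CBD and 0.0393 for its control. Gap43, Mog and Rbfox3 were listed at 0 in the control of the CBD table, and the part of the neural and Y-linked transcripts in the results on CBD was not tested. In such bulk samples, fewer cells of a type and less RNA per cell cannot be told apart.

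Proteasome genes were abundant in these cells. Of the 46 members, 44 were tested in both tables, and none of these was under the 16.3 FPKM of Psmd10 in the control of the CBD table. The other 2 are tissue-restricted core genes that neither table tested: Psma8, the alpha subunit of the testis proteasome, was listed at 0 in every column, and Psmb11, the beta subunit of thymic cortical epithelium, stood at 0.171 FPKM with CBD against 0.223 in its control, and 0.190 with 4-OHT against 0.186 in its control. Together the 46 came to 8022 FPKM for CBD and 6546 for its control, and to 7913 for 4-OHT and 8005 for its control. By summed FPKM the column lowest in proteasome transcripts was therefore the control of the CBD table, and the sum with CBD lay next to that of the other control. As a share of all FPKM in the column the same genes made up 0.873% with CBD against 0.9705% in its control, and 1.13% with 4-OHT against 1.185% in its control. By this share the lowest column was that of CBD. The share and the sum thus moved in opposite directions with CBD, where all FPKM of the column summed to 918666, against 674548 in its control. The cytosolic ribosomal protein genes took 29.5% of all FPKM with CBD, against 25.1% in its control, and their part in this shift was not tested.

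**Figure D1:**
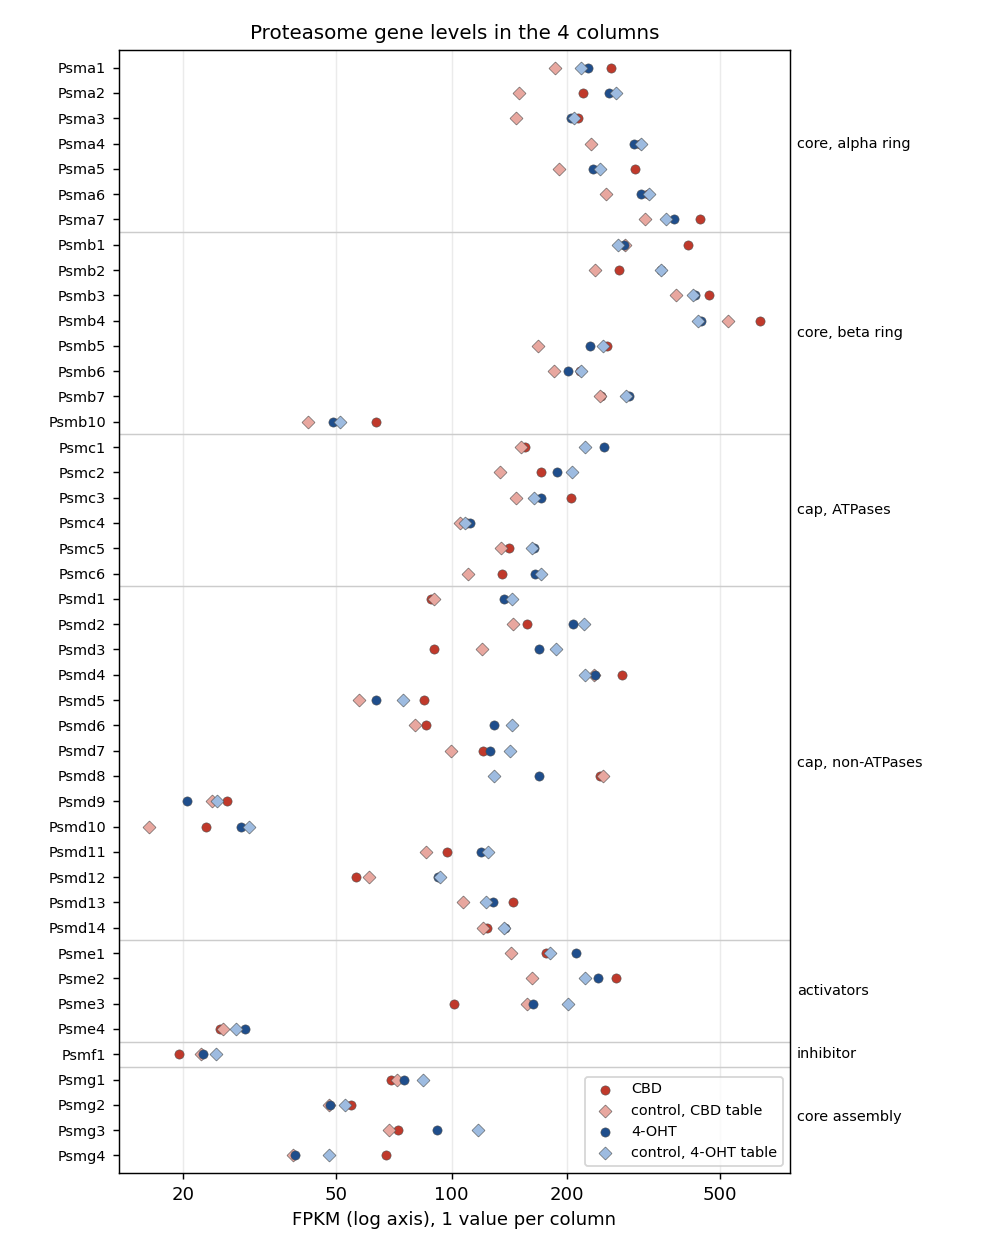
FPKM (log axis) of the 44 members above 1 FPKM in every column, ordered by role, with 1 point for each of the 4 deposited columns (CBD and its control, 4-OHT and its control) and no error bars since each column is 1 value per group. Psmb4 lies furthest right by its mean, core genes other than Psmb10 stay at 147 FPKM or more, and Psmd9, Psmd10, Psme4 and Psmf1 lie furthest left.

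Levels, which FPKM scales by length, differed between the roles. The 14 constitutive core genes had a median of 286 FPKM with CBD against 233 in its control, and 285 with 4-OHT against 277 in its control. The ATPases of the cap had medians of 148 FPKM with CBD against 134 in its control, and 168 with 4-OHT against 167 in its control. Psmc1 was the highest ATPase by its mean and Psmc4 the lowest, at 110 FPKM with CBD against 105 in its control, and 112 with 4-OHT against 108 in its control. Core assembly chaperones were lower still, with medians of 68.4 FPKM with CBD against 58.2 in its control, and 61.7 with 4-OHT against 68.4 in its control. Subunits that sit side by side in 1 ring were not at equal levels: in the alpha ring Psma7 was the highest, at 444 FPKM with CBD against 318 in its control and 379 with 4-OHT against 361 in its control, and Psma3 the lowest tested, at 214 with CBD against 147 in its control and 204 with 4-OHT against 209 in its control. Psmb4 was the highest member of all by its mean over the 4 columns, at 635 FPKM with CBD against 523 in its control, and 445 with 4-OHT against 437 in its control. Psmb10, the interferon-inducible stand-in for the catalytic Psmb7, reached 63.4 FPKM with CBD against 42.3 in its control, and 49.2 with 4-OHT against 51.0 in its control. Psmb7 itself was at 245 FPKM with CBD against 243 in its control, and at 289 with 4-OHT against 284 in its control, so the constitutive gene stood well above the inducible one in all 4 columns. The inhibitor gene Psmf1 was the lowest tested member by its mean, at 19.5 FPKM with CBD against 22.2 in its control, and 22.4 with 4-OHT against 24.3 in its control, and it passed neither test.

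The promoters of the members that rose or fell most in each table are printed first: Psme2 (largest rise with CBD), Psme3 (largest fall with CBD), Psmd8 (largest rise with 4-OHT) and Psmg3 (largest fall with 4-OHT). No link between a promoter and a fold was tested. RefSeq lists another, overlapping start for Psme2, which is not printed. Each is the RefSeq sequence of the strand given, in build GRCm38.p6, from 250 bases before to 50 after the start of the gene, 5′ to 3′. Capitals mark matches on either strand to 1 of 6 motifs described after them.
Psme2, chr14:55591052-55591351, minus strand: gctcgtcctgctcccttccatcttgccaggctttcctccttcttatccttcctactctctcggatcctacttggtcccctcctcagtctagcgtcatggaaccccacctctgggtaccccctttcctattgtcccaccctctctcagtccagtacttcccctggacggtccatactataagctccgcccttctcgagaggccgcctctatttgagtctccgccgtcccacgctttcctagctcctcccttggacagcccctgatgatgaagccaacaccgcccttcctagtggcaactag
Psme3, chr11:101315963-101316262, plus strand: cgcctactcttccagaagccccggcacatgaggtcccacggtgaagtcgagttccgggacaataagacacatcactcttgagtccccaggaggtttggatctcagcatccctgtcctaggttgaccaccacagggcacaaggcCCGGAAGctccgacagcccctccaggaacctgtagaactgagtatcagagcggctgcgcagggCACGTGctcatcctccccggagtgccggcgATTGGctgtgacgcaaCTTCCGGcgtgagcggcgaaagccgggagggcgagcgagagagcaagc
Psmd8, chr7:29180624-29180923, minus strand: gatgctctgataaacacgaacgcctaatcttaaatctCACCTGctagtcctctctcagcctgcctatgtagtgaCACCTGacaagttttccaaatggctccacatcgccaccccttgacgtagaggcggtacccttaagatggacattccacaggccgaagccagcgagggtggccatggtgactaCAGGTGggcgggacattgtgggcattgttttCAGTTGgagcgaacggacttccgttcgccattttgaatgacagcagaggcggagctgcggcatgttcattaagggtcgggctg
Psmg3, chr5:139826845-139827144, minus strand: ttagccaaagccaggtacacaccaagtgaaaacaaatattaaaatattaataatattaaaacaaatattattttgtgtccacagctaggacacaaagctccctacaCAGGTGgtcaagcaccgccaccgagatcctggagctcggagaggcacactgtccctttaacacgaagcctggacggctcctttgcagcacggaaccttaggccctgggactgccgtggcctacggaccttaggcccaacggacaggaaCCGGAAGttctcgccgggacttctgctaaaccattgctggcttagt

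In the promoter of Psme3 the capitals are an ETS site at position −107 from the start, a MYC E box at −44, a CCAAT box at −14 and another ETS site at 2. The promoter of Psmd8 holds 4 E boxes of the E protein type and none of the other motifs. That of Psmg3 holds 1 such E box and 1 ETS site, and that of Psme2 holds no match to any of the 6. The motifs, searched on both strands, were TGACNNNGC (the core of the antioxidant response element bound by Nfe2l1 and Nfe2l2), the core of the interferon response element, CCAAT (the box bound by NF-Y), CAGNTG (E boxes bound by E proteins, the partners of Id1), CACGTG (E boxes bound by MYC) and CCGGAAG (the site of ETS factors). RefSeq promoters were found for 38 of the 46 members, 41 sequences in all; those of Psma8, Psmb1, Psmb2, Psmb7, Psmc3, Psmd3, Psmd7 and Psmg2 were not matched.

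The ETS motif was in 36.6% of the 41 member promoters, against 8.86% of 32851 promoters of this length and 24.7% of 652 promoters of other genes at 100 FPKM or more in all 4 columns. The interferon motif was in 12.2% of member promoters (Psmd4, Psmd9, Psmb3, Psmg4 and Psme1), against 3.44% of all and 3.99% of the highly expressed. The antioxidant motif was in 14.6% of member promoters (Psmb5, Psmb6, Psmc6, Psmd9, Psmd12 and Psme4), against 12.4% of all and 18.4% of the highly expressed. CCAAT was in 31.7%, against 37.4% of all and 40.3% of the highly expressed. The E protein box was in 43.9%, against 51.4% of all and 36.7% of the highly expressed. The MYC box was in 9.76%, against 7.15% of all and 12.3% of the highly expressed. Among 88 matches 1 pair of different motifs overlapped, an E box of the E protein type and the interferon motif of Psmg4. An E protein box in each of Psma4, Psmd4 and Psmd10 matches on both strands and is counted on each, so there were fewer sites than matches. A match describes letters only, and its absence says nothing about a factor.

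**Figure D2:**
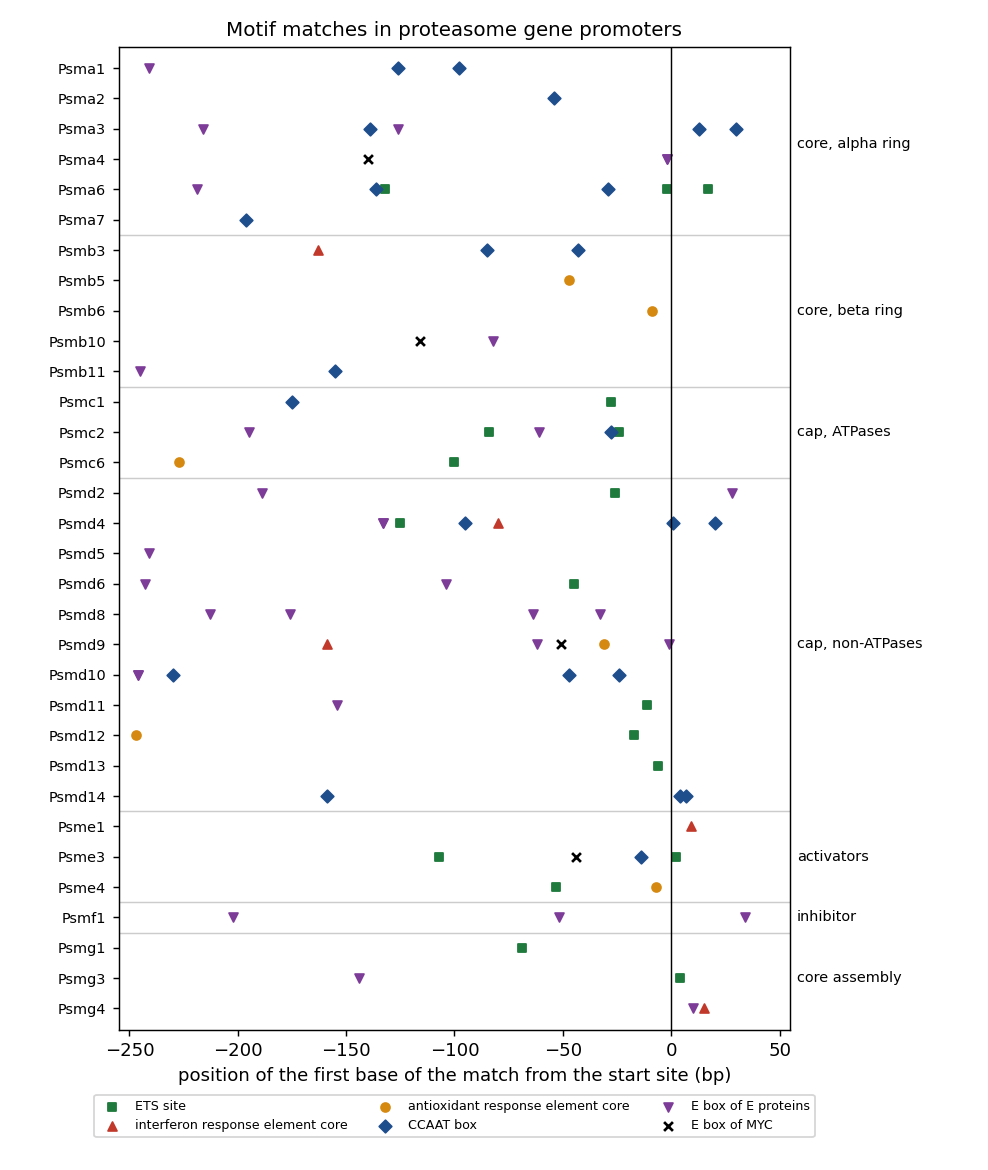
Position (bp from the start site, at 0) of each motif match in the member promoters that hold at least 1, ordered by role, with 1 symbol per match and 1 colour per motif. ETS sites lie between positions −132 and 17, and the 4 E boxes of Psmd8 between −213 and −33.

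With CBD the tested core genes all stood above their own control, but 1 passed the test. Of the 44 tested members 2 rose (Psma5 and Psme2), 1 fell (Psme3) and 41 were not called, which is 6.82% called beside 26.2% of all 13751 genes tested and 19.7% of the 775 tested genes that reached 100 FPKM in each column. By direction, 4.55% of members rose, beside 18.4% of all tested genes and 15.1% of those reaching 100 FPKM, and 2.27% fell, beside 7.74% and 4.65%. Fold changes of 0.55 and more on the log2 scale were not called in several members, up to 0.81 for Psmg4. All 15 tested core genes had a log2 fold above 0 with CBD, with a median of 0.48, whereas the 20 cap genes had a median of 0.13 with 16 above 0 and the 4 activators a median of 0.14 with 2 above 0. Without Psmd5, Psmd9 and Psmd10, which are chaperones of cap assembly, the other 17 cap genes had a median of 0.10 with 13 above 0. The same median was 0.29 over all genes tested, 0.30 over those reaching 100 FPKM and 0.05 over those reaching 1 FPKM in each column. A log2 fold above 0 with CBD was found for 8731 of all 13751 genes tested and 551 of the 775 reaching 100 FPKM. Ribosomal protein genes were also mostly above their control with CBD: the cytosolic ribosomal protein genes had a median log2 fold of 0.65, with 3 of 81 rising and none falling, and the mitochondrial ribosomal protein genes a median of 0.20, with 4 of 76 rising and none falling.

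In the alpha ring, which gates the entry of the core, Psma5 was at 301 FPKM with CBD against 190 in its control, a log2 fold of 0.66 (q = 0.0405 in the authors' deposited table). It is the only core gene that passed. With 4-OHT it was at 233 FPKM against 243 in its control and was not called, so the CBD value lay above both controls. Psma2 was at 219 FPKM with CBD against 150 in its control, with a log2 fold of 0.55 and q = 0.0832 in the authors' deposited table, but the other control column held 267 FPKM. Psma3 was similar, at 214 FPKM with CBD against 147 in its control and 209 in the other control (q = 0.0999 in the authors' deposited table). The remaining alpha genes Psma1, Psma4, Psma6 and Psma7 had log2 folds of 0.36 to 0.48 that were not called.

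In the beta ring no gene passed with CBD, and 3 of 8 tested genes had an unadjusted p under 0.05, all with a positive fold. Over all 13751 tested genes 3360 had such a p with a positive fold. Psmb5, which carries the chymotrypsin-like site that bortezomib blocks, was at 253 FPKM with CBD against 167 in its control, a log2 fold of 0.60 with q = 0.0583 in the authors' deposited table. The other control column held 248 FPKM of Psmb5, almost the CBD value. The row of Psmb5 shares its locus with Mir686, which was not tested and is listed at 2610 FPKM with CBD against 1713 in its control. Psmb6, the caspase-like subunit, was at 215 FPKM with CBD against 185 in its control, and Psmb7, the trypsin-like subunit, hardly differed between CBD and its control. The 3 catalytic genes thus had unequal log2 folds of 0.60, 0.22 and 0.01 with CBD, none of them called. Psmb1 was at 413 FPKM with CBD against 282 in its control (q = 0.108 in the authors' deposited table), and it also exceeded the other control, at 271 FPKM. Psmb10 had a log2 fold of 0.58 with q = 0.122 in the authors' deposited table. Of the 2 inducible catalytic genes kept out by the rule, Psmb8 rose to 131 FPKM with CBD against 69.5 in its control, and Psmb9 was at 139 FPKM with CBD against 119 in its control and was not called. Both rose with 4-OHT, Psmb8 to 44.4 FPKM against 31.5 in its control and Psmb9 to 54.9 against 29.9, but stayed below the control of the CBD table.

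With CBD no gene of the cap passed the test, by Cuffdiff in the authors' deposited table. An unadjusted p under 0.05 was found for 1 of 20, Psmd5, with a positive fold, beside 3360 of all 13751 tested genes. The ATPases, which unfold substrates, had log2 folds between 0.03 (Psmc1) and 0.47 (Psmc3). Psmc3 was at 204 FPKM with CBD against 147 in its control and 163 in the other control. Among the non-ATPases the lowest fold belonged to Psmd3, a scaffold of the lid, at 90.0 FPKM with CBD against 120 in its control and 187 in the other control, a log2 fold of −0.42 with q = 0.197 in the authors' deposited table. Psmd14, the deubiquitinase of the lid, was at 124 FPKM with CBD against 121 in its control, and Psmd4, a ubiquitin receptor, at 277 against 235, both not called. Psmd4 was the highest non-ATPase by its mean, and stood at 237 FPKM with 4-OHT against 223 in its control, also not called. Psmd1 and Psmd2, the large scaffolds of the base, were at 88.6 and 157 FPKM with CBD against 89.7 and 144 in its control. Relative to the other control column 13 of the 20 cap genes lay lower with CBD, with a median log2 fold of −0.25.

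**Figure D3:**
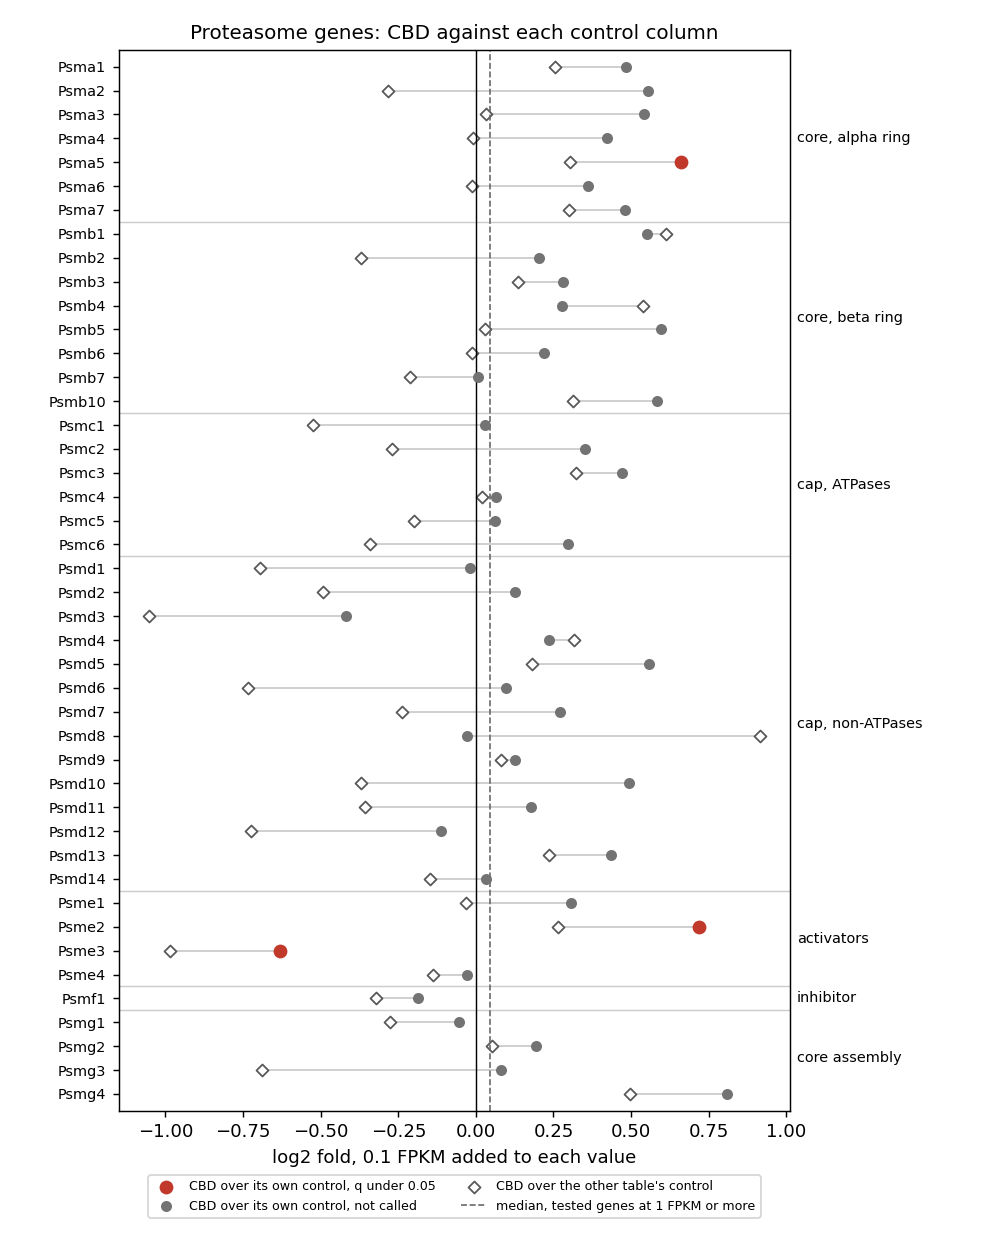
Log2 fold (0.1 FPKM added to each value) of CBD over its own control for the 44 tested members (filled, large red where the deposited q is under 0.05, grey otherwise) and over the control column of the 4-OHT table (open diamonds), with the dashed line at the median of tested genes at 1 FPKM or more. The core genes lie right of 0 against their own control, and over all roles 19 of the 44 diamonds lie right of 0.

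Both members called in the 2 tables alike, Psme2 and Psme3, are activators. Psme2, which with Psme1 forms the interferon-inducible activator ring, rose to 267 FPKM with CBD against 162 in its control, a log2 fold of 0.72 with q = 0.000866 in the authors' deposited table. With 4-OHT it was at 241 FPKM against 222 in its control, a log2 fold of only 0.11 with q = 0.0304 in the authors' deposited table. Both treated columns were above both control columns for Psme2, which lies on chromosome 14 from 56206277 to 56209938 in mm9. Reads of Psme2 cannot be told apart here from any of its near-identical retrogene copy Psme2b, so its level is uncertain.

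Psme1 was at 176 FPKM with CBD against 143 in its control, which was not called, and rose to 210 FPKM with 4-OHT against 180 in its control, a log2 fold of 0.22 with q = 0.000666 in the authors' deposited table. The row of Psme1 shares its locus with Fam158a, at 36.6 FPKM with 4-OHT against 42.1 in its control, and no source used here says that the counting used strand. Fam158a fell with 4-OHT (q = 0.0342 in the authors' deposited table), the opposite direction to Psme1.

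Psme3, the activator of nuclear proteasomes, fell in both tables. It was at 101 FPKM with CBD against 157 in its control, a log2 fold of −0.63 with q = 0.0433 in the authors' deposited table. With 4-OHT it was at 163 FPKM against 201 in its control, a log2 fold of −0.30 with q = 1.03e-06 in the authors' deposited table. The CBD value was below both control columns, but the 4-OHT value was above the 157 FPKM of the CBD table's control. Psme3 lies on chromosome 11 from 101177565 to 101184844 in mm9. Psme4, another nuclear activator, was the lowest of this role, at 24.9 FPKM with CBD against 25.4 in its control and at 28.9 with 4-OHT against 27.4 in its control, and passed neither test.

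With 4-OHT the core genes did not pass the test in either direction: 0 of 15 were called by Cuffdiff in the authors' deposited table. An unadjusted p under 0.05 was found for 1 of 15, Psmb6, with a negative fold, beside 2187 of all 11232 tested genes. Over all roles 14 of 44 members were called, or 31.8%, beside 44.1% of all 11232 genes tested and 42.7% of the 783 tested genes that reached 100 FPKM in each column. Of these 14, 4 rose (9.09% of members, beside 27.2% of all tested genes and 25.8% of those reaching 100 FPKM) and 10 fell (22.7% of members, beside 16.9% in both sets). The core folds were small, from −0.12 for Psmb6 to 0.07 for Psma7 on the log2 scale, around a median of −0.03. The cap median was −0.06 and the activator median 0.10, beside 0.05 over all genes tested. Of the cytosolic ribosomal protein genes 29 rose and 2 fell of 79 tested with 4-OHT, and of the mitochondrial ones 2 rose and 31 fell of 76.

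In the cap 2 of 20 genes rose and 6 fell with 4-OHT (10% and 30%, beside 27.2% and 16.9% of all tested genes). Without Psmd5, Psmd9 and Psmd10, which are chaperones of cap assembly, 2 of 17 rose and 4 fell (11.8% and 23.5%), with a median log2 fold of −0.02. Psmd8, a lid subunit, had the largest rise of any member, to 169 FPKM with 4-OHT against 129 in its control, a log2 fold of 0.40 with q = 1.32e-10 in the authors' deposited table. The control of the CBD table, however, held 247 FPKM of Psmd8, and CBD itself 243, so that the control of the CBD table exceeded that of the 4-OHT table by 0.94 on the log2 scale, more than 4-OHT exceeded its control. Psmd8 lies on chromosome 7 from 29959206 to 29965692 in mm9. The ATPase gene Psmc1 rose to 250 FPKM with 4-OHT against 223 in its control (q = 0.0128 in the authors' deposited table). Psmc1 was at 155 FPKM with CBD against 152 in its control. Its partner in the same ring, Psmc2, fell to 188 FPKM with 4-OHT against 206 in its control (q = 0.0476 in the authors' deposited table), with 171 FPKM for CBD and 134 for its control. Further lid genes fell slightly: Psmd7 was at 126 FPKM with 4-OHT against 142 in its control, Psmd6 at 129 against 143, and Psmd3 at 169 against 187. The q in the authors' deposited table was 0.00846 for Psmd7, 0.0280 for Psmd6 and 0.0288 for Psmd3. With CBD Psmd7 was at 120 FPKM against 99.9 in its control and Psmd6 at 86.0 against 80.4, and the 4-OHT value of each of the 3 stood above the control of the CBD table.

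Of all 11232 tested genes 4729 had a log2 fold below 0 with 4-OHT, and so had all 7 assembly chaperones among the members. These are the 4 Psmg genes, which build the core, and the 3 Psmd genes Psmd5, Psmd9 and Psmd10, which build the base of the cap and leave it afterwards; they were put together after their values were seen, so the count is a description. Of the 7 genes 5 fell (71.4%, beside 16.9% of all tested genes) and 2 were not called, with a median log2 fold of −0.23. Psmg3 had the largest fall of any member, to 91.4 FPKM with 4-OHT against 117 in its control, a log2 fold of −0.36 with q = 2.09e-07 in the authors' deposited table. With CBD it was at 72.6 FPKM against 68.6 in its control. Psmg3 lies on chromosome 5 from 140299548 to 140302797 in mm9.

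Psmg4 was at 39.1 FPKM with 4-OHT against 47.8 in its control (q = 0.00960 in the authors' deposited table), and Psmg1 at 75.3 against 84.1 (q = 0.0334 in the authors' deposited table). With CBD Psmg1 was at 69.4 FPKM against 72.0 in its control, which was not called. Psmg2, the partner of Psmg1, was at 48.1 FPKM with 4-OHT against 52.7 in its control and was not called. Of the base chaperones Psmd9 fell to 20.4 FPKM with 4-OHT against 24.5 in its control (q = 0.000298 in the authors' deposited table), and Psmd5 to 63.4 against 74.5 (q = 0.000389 in the authors' deposited table). Psmd9 was the only member that fell with 4-OHT and also lay below the control of the CBD table, at 23.8 FPKM, where CBD itself held 25.9. Psmd10, also known as gankyrin, was at 28.3 FPKM with 4-OHT against 29.7 in its control and was not called. With CBD none of the 7 passed in the authors' deposited Cuffdiff test, and 2 had an unadjusted p under 0.05 with a positive fold: Psmg4, at 67.5 FPKM with CBD against 38.5 in its control, and Psmd5, at 84.4 against 57.3. Over all 13751 tested genes 3360 had such a p with a positive fold.

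**Figure D4:**
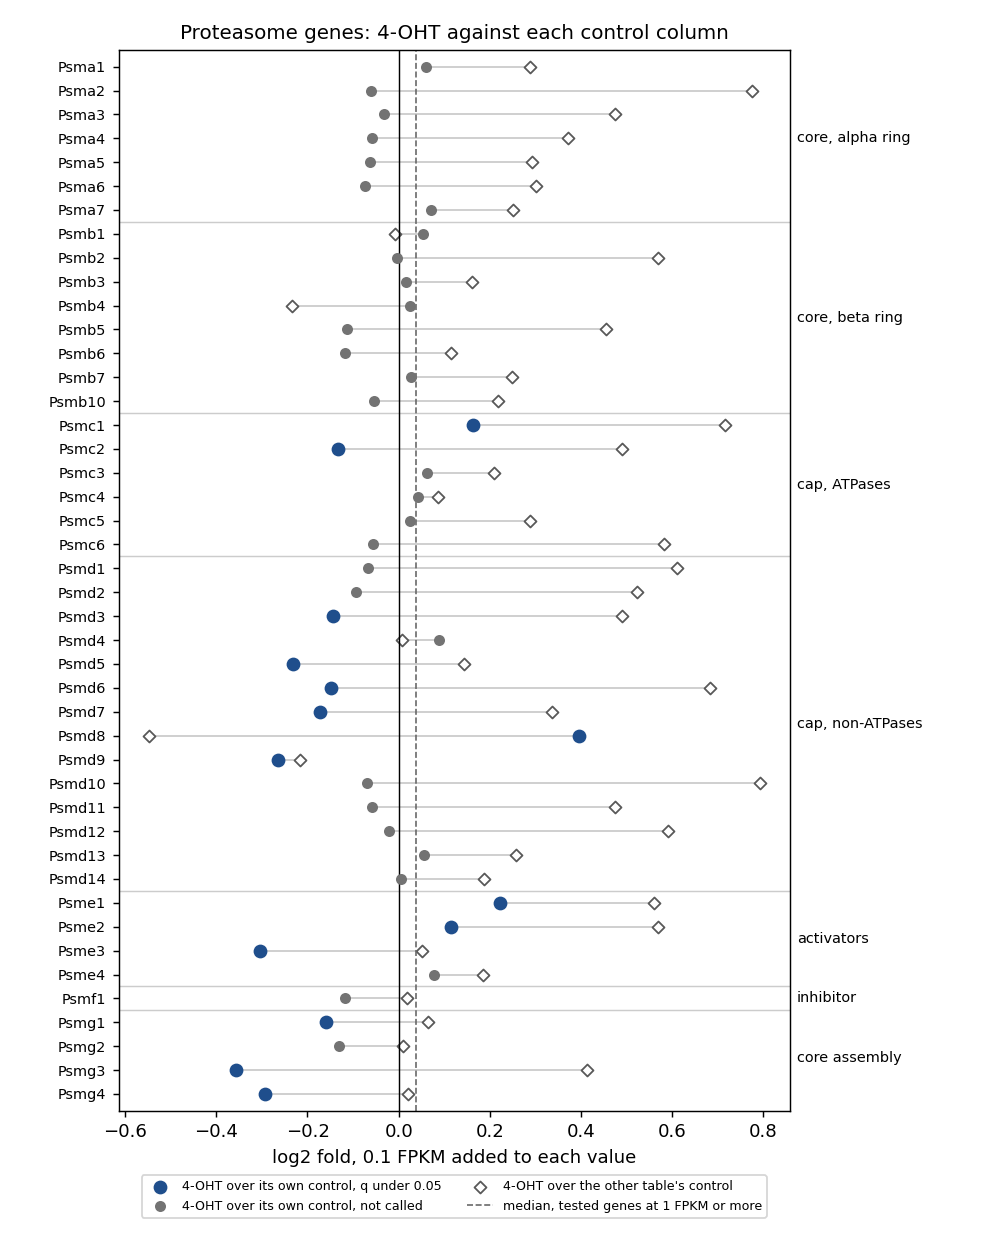
Log2 fold (0.1 FPKM added to each value) of 4-OHT over its own control for the 44 tested members (filled, large blue where the deposited q is under 0.05, grey otherwise) and over the control column of the CBD table (open diamonds), with the dashed line at the median of tested genes at 1 FPKM or more. Filled points lie between −0.36 and 0.40, core genes close to 0, while most diamonds lie right of 0 and those of Psmb1, Psmb4, Psmd8 and Psmd9 lie left.

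The 2 control columns differed from each other more than 4-OHT differed from its control in 42 of the 44 tested members, and more than CBD did in 24 of 44. Over all genes tested and reaching 1 FPKM in each column the same held for 7078 of 9498 with 4-OHT and 4008 of 9331 with CBD. The control of the CBD table was below that of the 4-OHT table in 40 of the 44, with a median log2 difference of −0.35, whereas the median over genes reaching 1 FPKM in each column was −0.01. The median was −0.52 over the 20 cap genes and −0.25 over 16 core genes. Of the 10 members that fell with 4-OHT 1 lay below both control columns, of the 4 that rose 3 lay above both (Psmc1, Psme1 and Psme2), and the 3 members called with CBD lay on the same side of both. Against the other control the core median was 0.03 with CBD and 0.29 with 4-OHT.

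Folds with CBD were lower for longer transcripts. Over the 44 tested members Spearman's rho between the log2 fold with CBD and the longest annotated transcript was −0.37, and over 5515 genes that reached 10 FPKM in the control column of each table it was −0.42; genes of a column share its library and are not independent. The core genes had a median longest transcript of 1311 bp and the cap genes of 1986 bp. With the trend over these 5515 genes removed, the medians with CBD were 0.13 for the core, 0.05 for the cap and 0.21 for the activators. They stood beside 0.07 over genes reaching 1 FPKM and 0.09 over genes reaching 100 FPKM in each column. The log2 folds were then 0.32 for Psma5, 0.285 for Psme2 and −0.68 for Psme3.

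Genes that work in or beside the proteasome under other symbols were taken from lists that hold no Psm gene. Of 17 tested genes of associated proteins (docking ubiquitin receptors, deubiquitinases, shuttle factors and maturation factors) 2 rose and 1 fell with CBD, and none rose and 7 fell with 4-OHT. That is 11.8% rising and 5.88% falling with CBD, beside 18.4% and 7.74% of all tested genes, and 41.2% falling with 4-OHT, beside 16.9% of all tested genes, where 27.2% rose. The zinc finger genes Zfand5, an activator of the cap, and Zfand2a, induced by arsenite, moved in opposite directions in the tables. Zfand5 rose to 47.1 FPKM with CBD against 30.0 in its control and fell to 22.3 with 4-OHT against 24.9 in its control. Zfand2a rose to 11.7 FPKM with CBD against 8.88 in its control and fell to 6.51 with 4-OHT against 8.61 in its control. Both lay on the same side of both control columns in each case. The shuttle factor gene Ubqln1 fell to 37.5 FPKM with CBD against 47.1 in its control and to 73.4 with 4-OHT against 80.7 in its control. Ube3c, a ubiquitin ligase bound to the proteasome, fell to 29.9 FPKM with 4-OHT against 36.6 in its control. With 4-OHT both Ubqln1 and Ube3c lay above the control of the CBD table, by 0.64 and 0.42 on the log2 scale, the opposite direction. Pomp, which guides the closing of the core barrel, was called in neither table, at 313 FPKM with CBD against 240 in its control and 386 with 4-OHT against 386 in its control.

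Of the genes that control proteasome transcription, Nfe2l1 was marked as a failed test in the CBD table, where it is listed at 67.3 FPKM with CBD and 92.3 in its control, and no direction is drawn from it. With 4-OHT Nfe2l1 rose to 32.2 FPKM against 30.2 in its control, a log2 fold of 0.09 with q = 0.00960 in the authors' deposited table, far below the value listed for the other control. Its relative Nfe2l2, the factor of the antioxidant response, rose to 43.2 FPKM with CBD against 25.8 in its control and 31.6 in the other control (q = 0.0192 in the authors' deposited table), and was not called with 4-OHT. Ddi2, counted above among the associated genes, is the protease that cuts Nfe2l1 to its active form. It fell to 24.9 FPKM with 4-OHT against 35.7 in its control, a log2 fold of −0.52 with q = 6.14e-15 in the authors' deposited table, yet stood above the 21.1 FPKM of the other control. Over the transcription list 1 of 8 tested genes rose with CBD (12.5%, beside 18.4% of all tested genes), and 3 of 9 rose and 1 fell with 4-OHT (33.3% and 11.1%, beside 27.2% and 16.9% of all tested genes). The other 2 that rose with 4-OHT were Maff, a small partner of these factors, to 1.79 FPKM against 0.604 in its control, and the ubiquitin ligase gene Syvn1, to 14.9 against 11.9. The repressor gene Bach1 fell to 17.9 FPKM with 4-OHT against 20.3 in its control. Against the other control column all 3 turned, with log2 folds of −0.26 for Maff, −0.51 for Syvn1 and 0.15 for Bach1.

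Of 13 genes of the unfoldase p97 (Vcp) and its cofactors 3 rose and none fell with CBD, and 3 rose and 3 fell with 4-OHT. The shares are near those over all tested genes, at 23.1% rising with CBD beside 18.4%, and 46.2% called with 4-OHT beside 44.1%. Ubxn6 rose to 52.8 FPKM with CBD against 24.4 in its control, Ubxn4 to 48.5 against 29.0 and Derl2, of the channel that returns proteins from the endoplasmic reticulum, to 21.5 against 13.2. With 4-OHT Faf1 fell to 29.6 FPKM against 37.3 in its control, Vcp to 307 against 360, and Ubxn1 rose to 150 against 130. Against the other control column these 3 turned as well, with log2 folds of 0.18 for Faf1, 0.66 for Vcp and −0.36 for Ubxn1. Of 10 genes for ubiquitin and the activating enzymes of it and of related proteins none passed with CBD, by Cuffdiff in the authors' deposited table, and none had an unadjusted p under 0.05. Over all 13751 tested genes 26.2% passed, and 3360 had such a p with a positive fold and 1493 with a negative one. With 4-OHT 4 rose and 1 fell (40% and 10%, beside 27.2% and 16.9% of all tested genes). Uba3, an activating enzyme of Nedd8, rose to 42.1 FPKM with 4-OHT against 37.0 in its control. The fall was that of Uba6, an activating enzyme of ubiquitin, to 15.1 FPKM against 20.9 in its control (q = 1.17e-13 in the authors' deposited table). Both turned against the other control column, with log2 folds of −0.28 for Uba3 and 0.75 for Uba6. Psmc3ip, the name match, was at 9.26 FPKM with CBD against 12.7 in its control and fell to 15.1 with 4-OHT against 17.9 in its control (q = 0.0427 in the authors' deposited table).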

How the data were processed

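RNA was extracted with a column kit and sequenced by standard Illumina protocols, per the labels. The submitters' processing notes name Bowtie 0.12.2, mm9 and Cuffdiff; the Cuffdiff version and the gene models were not stated there. FPKM values, 1 per group and table, and the p-value and q-value columns are the authors' deposited Cuffdiff output, and the deposited log2 fold column was used only as a check: q recomputed from p (Benjamini-Hochberg, genes marked OK) differed by at most 1.52e-06. Each of the 2 tables lists 21881 genes, of which 13751 (CBD) and 11232 (4-OHT) have status OK and are called tested. Separate cultures are not named in the labels, so the deposited p-values may reflect technical spread. Depth is unknown, so no interval, limit or test over samples was computed. Log2 folds were computed with a pseudocount of 0.1 FPKM in Python 3.11.15 with pandas 2.3.3.

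Members and lists were chosen with earlier results of these data known. Full values are given for every called member, the highest and lowest of each role, Psma8, Psmb10 and Psmb11, and up to 3 called genes of each other list, of which 1 is not reported here. Further members, among them catalytic subunits, and the 6 motifs were chosen after their values were seen, as was the comparison with genes at 100 FPKM or more. Transcript lengths are the longest in GENCODE, a later build than mm9, found for all 46 members; the trend was the median fold in 20 length bins, and it and the motif search were tested on simulated data. Positions come from the tables, whose starts were taken to count from 0 and raised by 1. Rows of 4 members (Psma4, Psmb5, Psmd1 and Psme1) overlap another gene's locus, so reads may be shared. The same holds for 3 members with named pseudogenes (Psmb5, Psmb6 and Psmb7).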

Additional observations from a re-analysis of the deposited data

How the results depend on the processing

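A q threshold of 0.01 left 1 member higher and 0 lower with CBD (2 and 1 at 0.05), and 2 higher and 6 lower with 4-OHT (4 and 10 at 0.05). When a log2 fold of at least 1 in size was also asked for, 0 members were called in either direction in either table. Of the 10 members lower with 4-OHT 1 also lay below the other control column. Counts were the same when only genes at 1 FPKM or more were kept. Against the other table's control column the CBD medians were 0.034 for the core (0.48 against its own control), −0.25 for the cap (0.13) and −0.085 for the activators (0.14), the last 2 with the sign turned; the 4-OHT medians were 0.29 for the core (−0.03) and 0.41 for the cap (−0.06), both with the sign turned, and 0.37 for the activators (0.10). Removing the length trend took the core median with CBD to 0.13. The cause of these shifts was not tested. The other medians, under pseudocounts of 0.01 and 1 FPKM, level filters, scaling to the median gene and, apart from that core median, removal of the length trend, moved by less than 0.1.

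Leaving out single samples was not run because each table gives 1 value per group. No paired analysis was possible because the columns carry no replicate numbers. With depth unknown, folds of the size seen in most members could not be set against a spread between samples, and the smallest absolute log2 fold called among members was 0.63 with CBD and 0.11 with 4-OHT.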
